A study of Mus musculus with 16 samples.

Results

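The colony-stimulating factor (CSF) receptors and related growth factors were followed here in resident macrophages of mice with and without Bhlhe40. The set holds 9 of the 19938 genes with a named probe set. Its members are the receptor genes Csf1r, Csf2ra, Csf2rb, Csf2rb2 and Csf3r, the ligand genes Csf1 and Csf2, and Flt3 and Kit, which encode receptors for other growth factors. They were chosen by symbol, each is read by 1 probe set, and the set was drawn up around Csf3r because its genotype difference runs in opposite directions in the lung and the peritoneum. Csf3r values in naive KO and WT mice of both tissues are therefore given as a description, with no test of any difference that uses them. Of the 9 members 6 were bright enough to test, among 11634 such genes, and Csf2, Flt3 and Kit were not.

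Bhlhe40 encodes a basic helix-loop-helix transcription factor, and the study asked how resident macrophages differ without it. Macrophages sorted from male C57BL/6 mice were profiled on 16 one-colour Affymetrix arrays in 7 groups. From mice given IL-4c (labelled as injections on days 0 and 2, killed on day 4; IL-4 is known to induce alternative activation) came large peritoneal macrophages (LPM) of 3 genotypes, with 2 arrays each: Bhlhe40LysM, Bhlhe40-/- (KO) and Bhlhe40+/+ (WT). From untreated mice came LPM of KO and WT genotype, with 3 arrays each, and alveolar macrophages (AM) of KO and WT genotype from lung digests, with 2 arrays each. Bhlhe40LysM mice carried floxed Bhlhe40 alleles and a LysM-Cre, in which the lysozyme M promoter drives the recombinase in myeloid cells, so deletion need not be complete or limited to LPM. KO mice lacked the gene in every cell, macrophages and their surroundings alike.

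CSF receptors tell macrophages and granulocytes to survive, divide and mature. M-CSF, the product of Csf1, acts through the receptor tyrosine kinase Csf1r and maintains most tissue macrophages. GM-CSF, the product of Csf2, acts through a specific alpha chain, Csf2ra, and the common beta chain, Csf2rb, which signals through Jak2 and Stat5 and is required for alveolar macrophages to develop. G-CSF acts through Csf3r, best known from neutrophils, and Flt3 and Kit are tyrosine kinase receptors of early blood progenitors, dendritic cells and mast cells.

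Values are log2 signals as deposited, 1.04 to 13.84 over all probe sets, with array medians of 4.79 to 4.93. Within groups, array pairs had a Pearson r of 0.989 to 0.995 over probe sets (11 pairs; probe sets are not independent). Nothing in the labels states that replicates came from separate mice, so p-values cover only array-to-array spread, which may be technical, and precision is limited by how few arrays there are. Bhlhe40 itself read 6.5 to 7.11 in naive KO LPM against 8.64 to 8.75 in WT, 7.53 to 7.75 in KO AM against 9.57 to 10.07 in WT, and 7.9 to 8.01 in IL-4c KO LPM against 8.77 to 8.99 in WT. KO arrays thus read lower than WT, but the probe set still gave signal above the array medians on all of them. In KO LPM this signal was 1.16 higher after IL-4c than in naive mice, against 0.2 in WT. The arrays labelled Bhlhe40LysM read 8.75 to 8.83, inside or near the WT range, and the position of the probes against the deleted exons is not known here, so their signal does not check the deletion and directions for these arrays rest on the label. The labelled cell types carried their markers as list means: 9 genes of large peritoneal macrophages averaged 10.02 to 11.39 in LPM arrays against 4.77 to 5.05 in AM arrays, while 9 genes of alveolar macrophages averaged 5.98 to 6.47 in LPM against 9.52 or more in AM. Of those alveolar genes, 7 were lower in naive LPM in KO and 6 in WT mice. Fabp4 went the other way, higher in LPM by 0.97 in KO and 1.87 in WT. Itgax and Krt79 are in both counts of lower genes. They were bright enough to test only through AM, so their differences are a description. As a gauge of background, 95% of the values of 1035 olfactory receptor probe sets, whose genes these cells are not known to use, were at most 4.48.

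Csf3r, the G-CSF receptor gene, had the widest range of the set over the groups. It lies on chromosome 4, 126023441 to 126044975 (Entrez 12986, GRCm38.p6). The RefSeq window around its annotated start (250 bases before it to 50 after, plus strand, chr4:126024409-126024708) lies within the gene's span in the same table. It is printed because the groups that differ by Bhlhe40 differ in this gene, with capitals marking the only match found in it, GAGGAA, a letter pattern of PU.1-type sites, at position -86 from the start:
Csf3r: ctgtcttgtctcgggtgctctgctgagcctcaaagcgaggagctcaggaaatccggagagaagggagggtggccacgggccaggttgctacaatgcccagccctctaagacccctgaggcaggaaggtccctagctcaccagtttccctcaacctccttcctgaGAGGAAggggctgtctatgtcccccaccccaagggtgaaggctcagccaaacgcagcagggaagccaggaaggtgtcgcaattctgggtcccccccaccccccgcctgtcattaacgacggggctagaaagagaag
The window holds no CACGTG, the E-box to which Bhlhe40 is known to bind, and neither TTCNNNGAA nor TTCNNNNGAA, the spacings of STAT sites. Over 32851 such windows of the mouse table, searched on both strands, 28.3% hold GAGGAA, 7.15% CACGTG, 8.3% TTCNNNGAA and 6.95% TTCNNNNGAA. These matches describe letters and show no binding.

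In naive LPM, Csf3r read 8.58, 8.42 and 8.47 in KO, against 9.2, 9.44 and 9.38 in WT. In naive AM it read 7.46 and 7.9 in KO, against 6.31 and 6.48 in WT. The KO arrays thus lay below all WT arrays in LPM and above all of them in AM. The log2 difference was -0.85 (1.8-fold lower in KO) in LPM and 1.28 (2.44-fold higher in KO) in AM, and these are the values on which the set was built. The peritoneum and the lung were also sorted from different preparations, so tissue and preparation cannot be told apart.

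**Figure D1:**
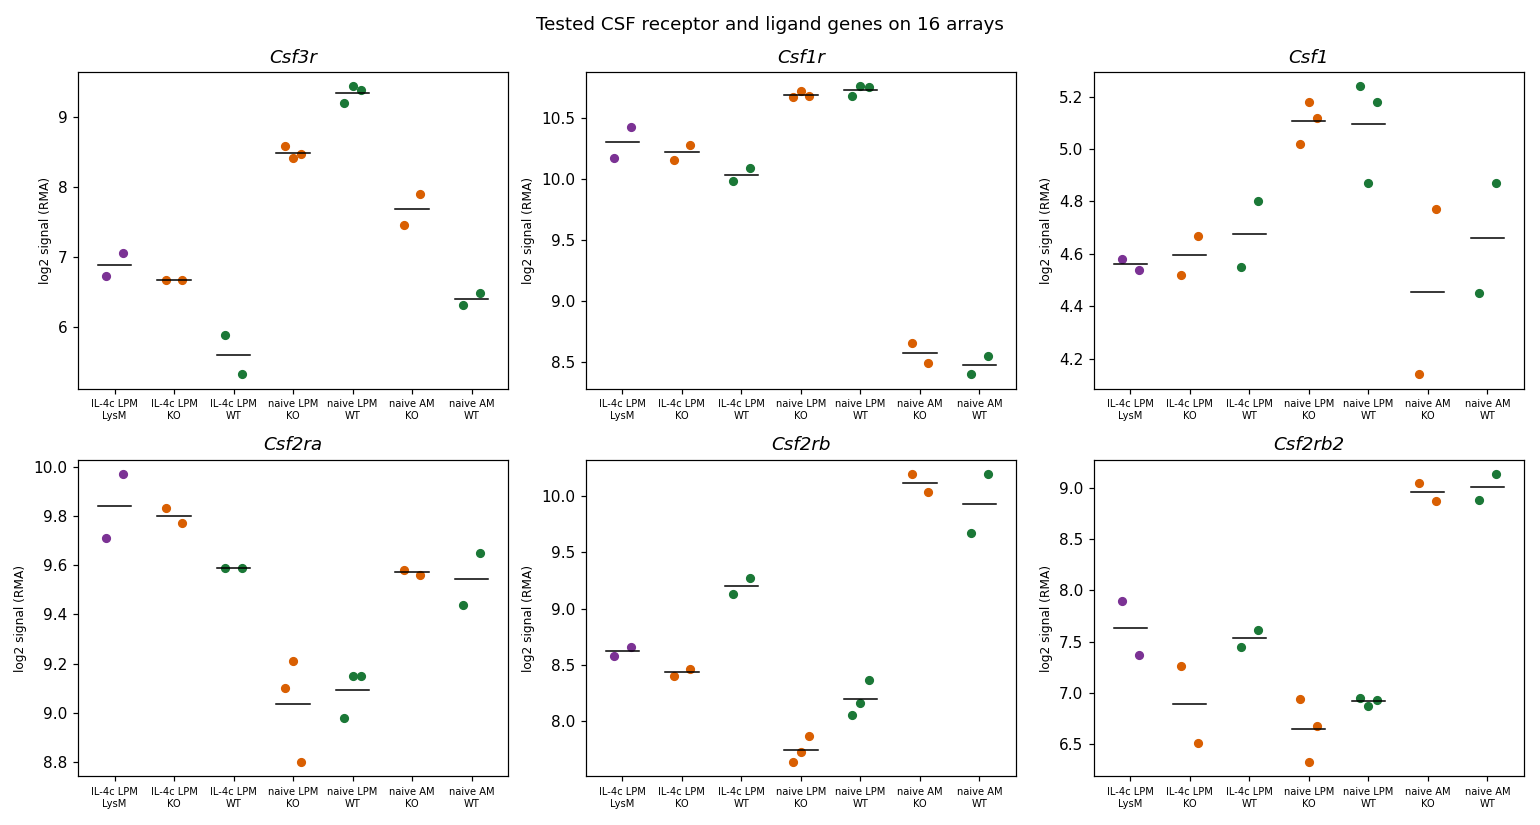
RMA log2 signal (y axis, own scale in each panel) of the 6 tested genes on each of the 16 arrays, by group along the x axis, with 1 point per array and a line at the group mean. Csf3r is lower in KO than WT in naive LPM, and higher in KO than WT in LPM after IL-4c and in AM (7.46 and 7.9 in KO against 6.31 and 6.48 in WT).

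After IL-4c the KO arrays were the higher ones. Csf3r read 6.72 and 7.06 in Bhlhe40LysM LPM and 6.67 and 6.67 in KO LPM, against 5.88 and 5.32 in WT LPM. No array of either mutant overlapped with WT. Signal was 2.45-fold higher in Bhlhe40LysM (log2 difference 1.29 ± 0.19 SE, 95% interval 0.89 to 1.69, adjusted p = 0.00074, limma over all tested genes) and 2.11-fold higher in KO (1.07 ± 0.19, 0.67 to 1.48, adjusted p = 0.005). Both differences use the same 2 WT arrays and are not independent of each other. Fitted on the compared arrays alone neither passed the threshold of 0.05 (adjusted p = 0.054 and 0.059), nor did the KO difference without WT replicate 2 (0.79, adjusted p = 0.1). Bhlhe40LysM and KO arrays differed by 0.22 (interval -0.18 to 0.62, adjusted p = 0.8). Markers of the macrophage lists were also called in these comparisons. None was called from the neutrophil, mast cell and basophil, dendritic cell, T and NK cell or B cell lists. For Bhlhe40LysM against WT, 2 of 7 general macrophage markers (Cd14 and Cd68; median of the list 0.4) and 2 of 9 alveolar macrophage markers were higher, 2 of 9 large peritoneal macrophage markers were higher and 2 lower, and 1 of 5 small peritoneal macrophage and monocyte markers was lower. Itgax, an alveolar marker counted there, read 3.78 to 4.02 in Bhlhe40LysM against 3.21 to 3.32 in WT. These values lie below 4.48, where a change could not be told from background. For KO against WT, 1 alveolar marker was higher and 1 large peritoneal marker was higher and 1 lower. Their part in the genotype differences of Csf3r and the other members was not tested.

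Csf3r signal was lower after IL-4c in LPM of both genotypes; since the naive arrays chose the gene, these differences are given without a test. In KO it read 6.67 on both IL-4c arrays, against 8.42 to 8.58 in naive mice, a 3.53-fold lower signal (-1.82 on the log2 scale). In WT it read 5.88 and 5.32 after IL-4c, against 9.2, 9.44 and 9.38 in naive mice, 13.4-fold lower (-3.74). The genotype difference was 1.07 after IL-4c and -0.85 in naive LPM, 1.92 apart, without overlap in either, and its naive part was used to choose the gene. Fewer cells of a type in a sort and less RNA per cell cannot be told apart in such bulk samples. IL-4c and naive LPM also differed in markers of the cell type lists. Of 5 tested markers of small peritoneal macrophages and monocytes 3 rose and 1 fell in KO. Mgl2 (5.56), Cd209a (2.07) and Irf4 (1.0) rose, and Ccr2 (-1.68) fell. The mean of the 6 list genes on the array was 7.34 to 7.54 after IL-4c against 6.19 to 6.5 in naive KO mice. In WT the same list had 3 higher and 1 lower, at 7.35 to 7.78 after IL-4c against 6.19 to 6.51 in naive mice. There Mgl2 (6.1), Irf4 (0.82) and Retnla (0.7) were higher and Ccr2 (-1.1) was lower. Mgl2 thus had the largest part in the rise of both means. Ccr2 was bright enough to test only through naive LPM, so its fall is a description. The mean of 7 B cell markers was 3.78 to 3.88 after IL-4c against 4.21 to 4.89 in naive KO mice, and 3.69 to 3.77 against 4.35 to 4.56 in WT mice. Of 9 large peritoneal macrophage markers 6 fell in KO and 7 in WT, with 0 higher in either. Of 7 general macrophage markers 4 fell and 1 rose in KO (median -0.48) and likewise in WT (median -0.86). Their part in the change of Csf3r was not tested.

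Between tissues of naive mice Csf3r was higher in LPM. The difference of LPM from AM was 0.81 in KO mice (1.76-fold) and 2.95 in WT mice (7.7-fold). These 10 arrays are the ones that chose the gene, so no test is given, and the gap between both tissue differences, -2.13, is the choice itself. Ordered by mean, the groups ran from naive WT LPM (9.34) through naive KO LPM (8.49), KO AM (7.68), Bhlhe40LysM IL-4c LPM (6.89), KO IL-4c LPM (6.67) and WT AM (6.39) to WT IL-4c LPM (5.6), with no overlap of arrays between neighbours.

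Because Csf3r is a neutrophil gene in most tissues, 12 other neutrophil genes were examined beside it. Ly6g, Ltf, Ngp and Retnlg stayed at or below 4.48 on all 16 arrays, and 5 of the 12 were tested. Their mean log2 signal was 4.07 to 4.11 in Bhlhe40LysM, 3.96 to 4.1 in KO and 3.97 to 4.08 in WT IL-4c LPM. It was 4.09 to 4.14 in KO against 4.1 to 4.21 in WT naive LPM, and 4.56 to 4.58 in KO AM against 4.54 to 4.55 in WT AM. These ranges all lie below the array medians. S100a9, a calcium-binding protein of neutrophils, read 5.38 to 5.46 in KO AM against 3.89 to 4.14 in WT AM. It lay above the array medians only in KO AM, the group that made it bright enough to test. Its difference (1.41) is therefore given without a test. S100a8, its partner, read 7.62 to 7.64 in KO AM against 7.77 to 7.88 in WT AM. Mmp9 lay above the array medians only in naive LPM, and Cxcr2 and Mmp8 only in AM. After IL-4c, Mmp9 differed from naive LPM by -1.28 in KO and -1.09 in WT, given without a test. Cxcr2 read 3.08 to 3.52 in KO IL-4c LPM against 2.74 to 2.95 in naive KO LPM. All of these lie below 4.48, where a change could not be told from background. S100a8 was lower after IL-4c in WT LPM (-1.19 ± 0.27, adjusted p = 0.0021, limma). The list median was 0.3 in KO and 0.06 in WT. Between LPM and AM, Mmp8 differed by -3.63 in KO and -4.03 in WT mice, and Cxcr2 by -1.99 in KO and -1.93 in WT. Mmp9 differed by 1.33 in KO and 1.29 in WT, and S100a9 by -1.63 in KO. These tissue differences are also given without a test, since each gene was bright enough only through a compared group. The part of such cells in the Csf3r values was not tested.

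**Figure D2:**
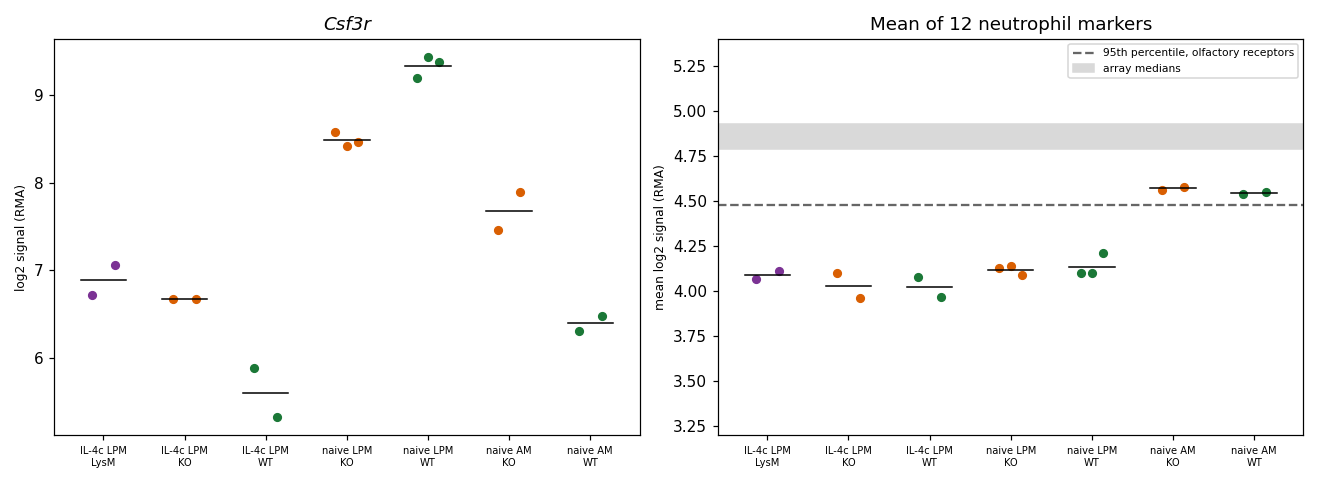
Left, log2 signal of Csf3r and right, mean log2 signal of 12 other neutrophil marker genes, per array (points) with group means (lines), groups along the x axis. The dashed line is the olfactory receptor 95th percentile (4.48) and the grey band the range of array medians (4.79 to 4.93); marker means run from 3.96 to 4.58 while Csf3r runs from 5.32 to 9.44.

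Csf1r, the M-CSF receptor gene (Entrez 12978, chromosome 18, 61105572 to 61131139), was bright in every group and differed with tissue and with IL-4c. It read 10.67, 10.72 and 10.68 in naive KO LPM and 10.68, 10.76 and 10.75 in naive WT LPM. In AM it read 8.66 and 8.49 in KO and 8.4 and 8.55 in WT. All LPM arrays lay above all AM arrays, by 4.34-fold in KO mice (2.12 ± 0.12, adjusted p = 3.5e-10) and 4.78-fold in WT mice (2.26 ± 0.12, adjusted p = 1.5e-10). KO and WT overlapped in both tissues, with differences of -0.04 in LPM (interval -0.27 to 0.18, adjusted p = 0.9) and 0.1 in AM (interval -0.18 to 0.37, adjusted p = 0.96).

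After IL-4c, Csf1r read 10.17 and 10.43 in Bhlhe40LysM, 10.16 and 10.28 in KO and 9.98 and 10.09 in WT LPM. All 6 arrays lay below all naive LPM arrays. The fall was 1.38-fold in KO (-0.47 ± 0.12, adjusted p = 0.0059) and 1.62-fold in WT (-0.7 ± 0.12, adjusted p = 0.00022), and the KO call was lost without KO IL-4c replicate 1 (-0.41, adjusted p = 0.064). General macrophage markers, given with Csf3r, had medians of -0.48 in KO and -0.86 in WT in the same comparisons, and their part was not tested. Both mutants lay just above WT, by 0.27 in Bhlhe40LysM (interval -0.01 to 0.55, adjusted p = 0.23) and by 0.19 in KO (interval -0.09 to 0.47, adjusted p = 0.51). In the order of means, naive WT and KO LPM overlapped, as did Bhlhe40LysM and KO IL-4c LPM, and KO and WT AM.

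Csf1, the M-CSF gene (Entrez 12977, chromosome 3, 107741048 to 107760469), was dim, between 4.14 and 5.24, above the array median on 7 of 16 arrays and above 4.48 on 14. It passed the filter through naive LPM, so differences of naive LPM from other groups are given without a test. There it read 5.02, 5.18 and 5.12 in KO and 5.24, 4.87 and 5.18 in WT. After IL-4c it read 4.58 and 4.54 in Bhlhe40LysM, 4.52 and 4.67 in KO and 4.55 and 4.8 in WT LPM. AM had 4.14 and 4.77 in KO and 4.45 and 4.87 in WT. The genotypes overlapped in naive LPM, in IL-4c LPM and in AM, with differences from -0.21 to 0.01 (adjusted p 0.8 to 0.99). The mean of IL-4c LPM minus that of naive LPM was -0.51 in KO and -0.42 in WT, and that of LPM minus AM was 0.65 in KO (0.34 without AM KO replicate 1) and 0.43 in WT.

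The GM-CSF receptor genes Csf2ra and Csf2rb, and the related Csf2rb2, showed the opposite tissue order to Csf1r and Csf3r in naive mice. Csf2ra, Csf2rb and Csf2rb2 read lower in naive LPM than in AM. Csf2ra (Entrez 12982, chromosome 19, 61217191 to 61228461) encodes the alpha chain that binds GM-CSF. Csf2rb (Entrez 12983, chromosome 15, 78325800 to 78351001) encodes the common beta chain, shared with the IL-3 and IL-5 receptors. Csf2rb2 (Entrez 12984, chromosome 15, 78282507 to 78305721), a mouse beta chain used by the IL-3 receptor, is a close paralog that lies 20078 bases away. The paralogs are alike enough in sequence that a probe may read both transcripts, so their values are not certain to be independent.

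RefSeq start windows of Csf2ra (minus strand, chr19:61228369-61228668) and Csf2rb2 (minus strand, chr15:78305672-78305971) are shown because both genes were lower in naive LPM than in AM in both genotypes. Capitals mark matches of the same 4 motifs on either strand:
Csf2ra: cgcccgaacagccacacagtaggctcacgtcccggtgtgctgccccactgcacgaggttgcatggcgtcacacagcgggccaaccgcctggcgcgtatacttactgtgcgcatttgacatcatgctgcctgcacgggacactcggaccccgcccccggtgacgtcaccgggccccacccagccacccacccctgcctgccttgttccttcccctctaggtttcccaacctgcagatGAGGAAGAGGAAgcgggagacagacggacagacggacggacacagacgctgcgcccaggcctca
Csf2rb2: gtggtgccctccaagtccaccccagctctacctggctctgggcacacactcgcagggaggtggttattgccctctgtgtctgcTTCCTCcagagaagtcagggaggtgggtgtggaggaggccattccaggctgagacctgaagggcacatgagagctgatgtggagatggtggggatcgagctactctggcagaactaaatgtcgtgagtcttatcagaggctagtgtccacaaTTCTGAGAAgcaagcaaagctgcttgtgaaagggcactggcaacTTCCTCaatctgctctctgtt
The Csf2ra window holds GAGGAA at positions -14 and -8, side by side just before the start. The Csf2rb2 window holds TTCNNNGAA at -15 and GAGGAA on the opposite strand, printed as its reverse complement, at -167 and 29. Neither holds CACGTG.

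Csf2rb was the GM-CSF receptor gene called between genotypes, after IL-4c. In naive LPM it read 7.63, 7.72 and 7.86 in KO, against 8.05, 8.16 and 8.36 in WT, with no overlap. That difference (-0.45 ± 0.14, interval -0.74 to -0.17) had an adjusted p of 0.11 and was called only with array weights (-0.46, adjusted p = 0.05 as rounded). In AM it read 10.2 and 10.04 in KO and 9.67 and 10.2 in WT, overlapping (0.19, interval -0.16 to 0.54, adjusted p = 0.94). LPM lay below AM by 5.22-fold in KO mice (-2.39 ± 0.15, adjusted p = 1.7e-09) and 3.35-fold in WT mice (-1.74 ± 0.15, adjusted p = 8.3e-08). The gap between those tissue differences, -0.64 ± 0.21, had an adjusted p of 0.23.

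After IL-4c, Csf2rb read 8.58 and 8.66 in Bhlhe40LysM and 8.4 and 8.46 in KO LPM, against 9.13 and 9.27 in WT LPM. Both mutants lay below WT without overlap. Signal was 1.49-fold lower in Bhlhe40LysM (-0.58 ± 0.17, interval -0.93 to -0.23, adjusted p = 0.04) and 1.7-fold lower in KO (-0.77 ± 0.17, interval -1.12 to -0.42, adjusted p = 0.017). The direction is opposite to that of Csf3r in the same arrays. The Bhlhe40LysM call was lost without any 1 of its 4 arrays (adjusted p 0.071 to 0.25), after centring (0.069), with no filter (0.053), on the compared arrays alone (0.12) and with array weights (0.059), and the KO call without WT replicate 2 (-0.7, adjusted p = 0.17) or KO replicate 1 (-0.74, adjusted p = 0.12) and on the compared arrays alone (0.067). Against naive LPM, IL-4c LPM were higher by 1.61-fold in KO (0.69 ± 0.15, adjusted p = 0.0022) and 2.01-fold in WT (1.01 ± 0.15, adjusted p = 7.2e-05).

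Csf2rb2 was also lower in LPM than in AM, and its arrays were scattered after IL-4c. It read 6.94, 6.32 and 6.67 in KO and 6.95, 6.87 and 6.93 in WT naive LPM, and 9.05 and 8.88 in KO and 8.89 and 9.14 in WT AM. LPM lay below AM by 5.0-fold in KO mice (-2.32 ± 0.22, adjusted p = 1.9e-07) and 4.28-fold in WT mice (-2.1 ± 0.22, adjusted p = 6.4e-07). After IL-4c it read 7.9 and 7.37 in Bhlhe40LysM, 7.26 and 6.51 in KO and 7.45 and 7.61 in WT LPM. KO lay below WT without overlap (-0.64, interval -1.14 to -0.14, adjusted p = 0.16), while Bhlhe40LysM overlapped with WT (0.11, interval -0.39 to 0.61, adjusted p = 0.85). IL-4c LPM differed from naive LPM by 0.24 in KO (interval -0.22 to 0.7, adjusted p = 0.41) and were higher by 0.61 ± 0.22 in WT (adjusted p = 0.032), a call lost without any 1 of its 5 arrays (adjusted p 0.057 to 0.17).

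Csf2ra varied least of the 5 CSF receptor genes, with all 16 arrays between 8.8 and 9.97. Naive LPM read 9.1, 9.21 and 8.8 in KO and 8.98, 9.15 and 9.15 in WT, and AM read 9.58 and 9.56 in KO and 9.44 and 9.65 in WT. LPM lay below AM by 0.53 ± 0.14 on the log2 scale in KO mice (adjusted p = 0.0055) and by 0.45 ± 0.14 in WT mice (adjusted p = 0.016), and the WT call was lost without AM WT replicate 2 (-0.35, adjusted p = 0.14) or naive LPM WT replicate 1 (-0.39, adjusted p = 0.062). After IL-4c it read 9.71 and 9.97 in Bhlhe40LysM, 9.83 and 9.77 in KO and 9.59 and 9.59 in WT LPM. All 6 lay above all naive LPM arrays, by 0.76 ± 0.14 in KO (adjusted p = 0.0005) and 0.5 ± 0.14 in WT (adjusted p = 0.0088). The mutants lay above WT by 0.25 in Bhlhe40LysM (interval -0.07 to 0.57, adjusted p = 0.36) and 0.21 in KO (interval -0.11 to 0.53, adjusted p = 0.54).

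Csf2, Flt3 and Kit gave no signal above the array medians on any array. Csf2, the GM-CSF gene (Entrez 12981, chromosome 11, 54247270 to 54249899), stayed between 2.65 and 3.17, below 4.48 throughout. Kit, the stem cell factor receptor gene (Entrez 16590, chromosome 5, 75574987 to 75656722), stayed between 3.81 and 4.46 and also never passed 4.48. Flt3, the receptor gene for Flt3 ligand (Entrez 14255, chromosome 5, 147330741 to 147400489), ran from 4.03 to 4.84 and passed 4.48 on 3 arrays, at 4.52 and 4.84 in KO and 4.72 in WT IL-4c LPM. With no filter, Flt3 was called once, higher after IL-4c in KO (0.42, adjusted p = 0.043), against 0.34 in WT (adjusted p = 0.098). At these levels a change in transcript could not be told from background. Beside them, 7 of 9 mast cell and basophil markers stayed at or below 4.48 on all arrays, as did 4 of 9 dendritic cell markers (Xcr1, Itgae, Dpp4 and Siglech). The rest of both lists passed 4.48: Gata2 and Batf3 on all arrays, Tpsb2 and Ccr7 in every group, and Zbtb46 on 1 array. Clec9a read 5.59 to 6.24 in KO AM and 5.3 to 5.99 in WT AM, and Cd209a reached 7.83 in WT IL-4c LPM. The part of such cells in the Flt3 and Kit values was not tested. The Flt3 start window holds CACGTG at position 3, the Kit windows hold GAGGAA, and the windows of Csf1 and Csf2 hold none of the 4 motifs.

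**Figure D3:**
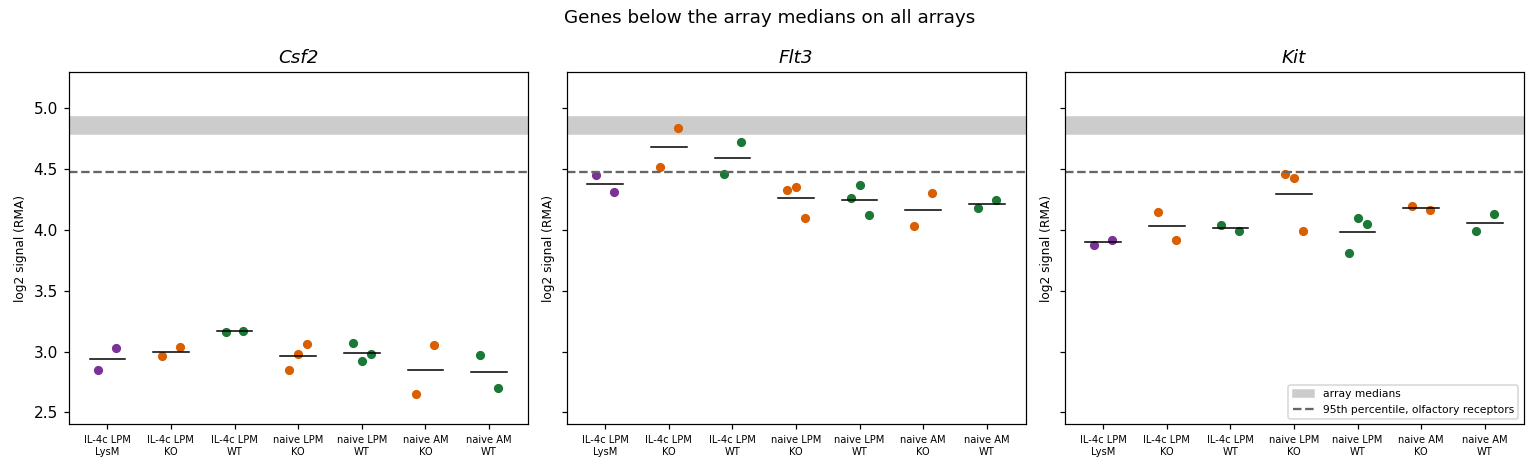
RMA log2 signal per array (points) and group mean (lines) of Csf2, Flt3 and Kit, groups along the x axis, with the olfactory receptor 95th percentile (dashed, 4.48) and the range of array medians (grey band, 4.79 to 4.93). Csf2 stays between 2.65 and 3.17, Kit between 3.81 and 4.46 and Flt3 between 4.03 and 4.84.

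Counted over the tested members, more were called between tissues and after IL-4c than between genotypes, and the same holds for all tested genes. Without Csf3r and Csf1, which got no test there, 4 of 4 members were called between LPM and AM in KO mice (1 higher and 3 lower in LPM, median difference -1.43) against 40% of all tested genes, and 4 of 4 in WT mice (1 higher, 3 lower, median -1.10) against 38.3%. After IL-4c, 3 of the same 4 were called in KO LPM (2 higher, 1 lower, median 0.47), where 37.3% of all genes were, and 4 of 4 in WT LPM (3 higher, 1 lower, median 0.55), where 41.2% were. The marker shifts given with Csf3r stand beside each of these IL-4c differences, and their part was not tested. The members were chosen with results known, so these counts give no support of their own. Median differences over all tested genes lay between -0.09 and 0.05 in all 11 comparisons.

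Between genotypes in IL-4c LPM, 2 of 6 members were called for Bhlhe40LysM against WT (Csf3r higher, Csf2rb lower, median 0.18), with 8.67% of all genes called, and the same 2 for KO against WT (median 0.06), with 3.63% called. Bhlhe40LysM against KO gave 0 of 6, with 0.0172% called. In naive mice, leaving out Csf3r, 0 of 5 were called for KO against WT in LPM (1.88% of all genes called) and in AM (0.12% called). Of the same 5 members, 0 were called for the genotype difference between tissues (0.249% called) and for the genotype difference between IL-4c and naive LPM (0.55% called).

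**Figure D4:**
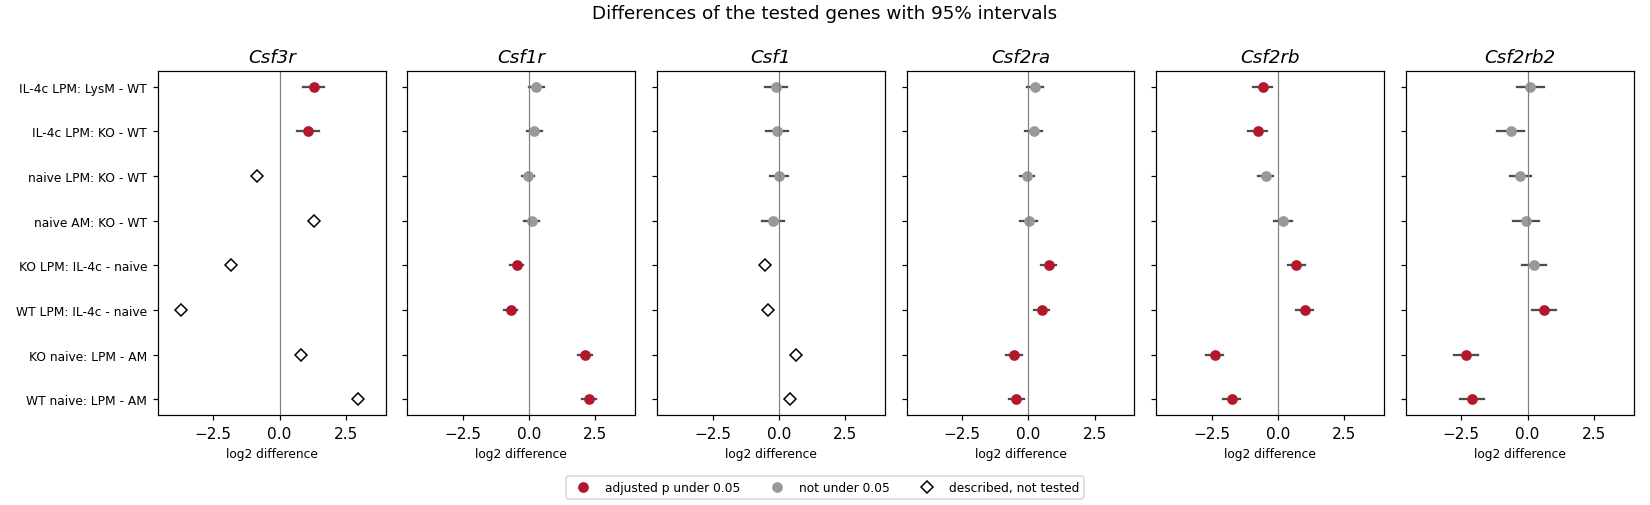
Log2 difference (x axis, first group minus second, with the 95% interval from limma as bars) of the 6 tested genes in 8 comparisons down the page. Red points have an adjusted p under 0.05, grey points do not, and open diamonds, shown without interval, are the differences given without a test: those of Csf3r that use naive arrays, such as the genotype differences in naive LPM (-0.85) and AM (1.28), and those of Csf1 between naive LPM and IL-4c LPM or AM.

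Of 15 related ligands and receptors (other cytokine receptors of the same families and their ligands), 14 were on the array and only 5 were tested. For the lists that follow, the shares of all tested genes called are those given with the members, 8.67% for Bhlhe40LysM and 3.63% for KO against WT after IL-4c, 37.3% in KO and 41.2% in WT for IL-4c, and 40% in KO and 38.3% in WT for LPM against AM. In IL-4c LPM, 2 rose in Bhlhe40LysM and 0 fell: Il6st, the shared signalling chain gp130 of the IL-6 family, averaged 9.8 in Bhlhe40LysM against 8.65 in WT (1.15 ± 0.19, adjusted p = 0.0019), and Il3ra, the alpha chain of the IL-3 receptor, 7.05 against 6.55 (0.51 ± 0.15, adjusted p = 0.048). In KO, Il6st alone rose (1.07 ± 0.19, adjusted p = 0.0057). After IL-4c, Il6st rose in KO (1.16 ± 0.18, adjusted p = 0.00012) and Flt3l, the ligand of Flt3, fell by 0.49, while in WT none of the 5 was called. Lifr, the leukaemia inhibitory factor receptor, was higher in LPM than in AM by 3.14 in KO and 3.73 in WT mice, Flt3l by 1.45 in KO and 1.38 in WT, and Il3ra by 0.57 in KO and 0.49 in WT, with none lower.

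Of 30 genes of CSF receptor signalling, 28 were tested. In IL-4c LPM, Cblb, a ubiquitin ligase that restrains receptor signalling, rose in Bhlhe40LysM (9.21 against 8.08 in WT; 1.13 ± 0.22, adjusted p = 0.0047) and in KO (8.98 against 8.08; 0.9 ± 0.22, adjusted p = 0.03). Lat2, an adaptor, also rose in Bhlhe40LysM (0.80 ± 0.19, adjusted p = 0.018), and no other of the 28 was called in either. In naive mice 0 of 28 were called between genotypes in LPM (median -0.16) or AM (median 0.1). After IL-4c, 4 rose and 7 fell in KO LPM (median 0.02), with the adaptor Grb2 (0.72) highest and the phosphatase Ptpn6 (-0.82) lowest. In WT LPM 3 rose and 10 fell (median -0.03), a share of the 28 that, as in KO, is near that of all genes: the kinase subunit Pik3cd (0.51), Grb2 (0.41) and Stat5a (0.36) rose, and the Ras regulators Rasa2 (-1.12) and Sos1 (-0.83) and the kinase Jak2 (-0.80) had the largest falls. Between LPM and AM, 6 were higher and 13 lower in KO mice (median -0.22) and 8 higher and 6 lower in WT mice (median 0.11). Lat2 (3.81 in KO, 3.23 in WT) and the adaptor Dok2 (1.47 in KO, 1.25 in WT) were higher in LPM, and the scaffold Gab2 (-1.40 in KO, -1.09 in WT) was lower.

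Of 22 genes known to respond to CSF signalling, 20 were tested, and 5 were called in each mutant after IL-4c. In Bhlhe40LysM 4 rose and 1 fell (median 0.09), and in KO 3 rose and 2 fell (median 0.14). Cebpa, a transcription factor of the myeloid lineage, averaged 8.46 in Bhlhe40LysM and 8.32 in KO against 7.3 in WT (1.16 ± 0.17, adjusted p = 0.00085, and 1.02 ± 0.17, adjusted p = 0.0041). Pparg, a nuclear receptor that GM-CSF induces in alveolar macrophages, rose by 0.92 in Bhlhe40LysM (adjusted p = 0.0049) and by 1.04 in KO (adjusted p = 0.0041), and it was the 1 gene of the list called in naive LPM (5.58 in KO against 4.71 in WT; 0.87 ± 0.15, adjusted p = 0.005). Cebpe, a transcription factor of granulocyte maturation, was lower by 0.85 in Bhlhe40LysM (adjusted p = 0.017) and by 0.76 in KO (adjusted p = 0.049). Egr2 rose in Bhlhe40LysM (1.59 ± 0.35, adjusted p = 0.011). In KO, Dusp6, a phosphatase that limits ERK signalling, rose (7.01 against 5.07 in WT; 1.94 ± 0.36, adjusted p = 0.0077) and Cish, a Stat5-induced inhibitor, fell (5.34 against 6.09; -0.76 ± 0.18, adjusted p = 0.029). In AM 0 of 20 were called between genotypes (median 0.08).

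Each named genotype call after IL-4c was lost under 1 or more alternatives, in no case with a change of direction. Over the 3 lists, the 7 calls named for KO were all lost without WT IL-4c replicate 2 (adjusted p 0.079 to 0.3), where the differences were 74 to 114% of those in full, and 4 were lost on the compared arrays alone (0.056 to 0.076). The 8 named for Bhlhe40LysM were all lost on the compared arrays alone (0.054 to 0.2), 6 without WT IL-4c replicate 2 (0.065 to 0.17, at 78 to 107% of the full difference) and 6 without Bhlhe40LysM replicate 1 (0.067 to 0.4, at 58 to 82%). Il3ra in Bhlhe40LysM and Cebpe in KO each missed the threshold under 9 of 13 alternatives. The difference of Pparg in naive LPM passed under all 15 alternatives.

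The same genes moved both ways with IL-4c and tissue. In KO LPM 4 rose and 4 fell after IL-4c (median 0.2), led by the protease gene Plau (0.86) and Cebpe (0.61) upward and by Dusp6 (-1.96) and the early growth response gene Egr1 (-1.50) downward. In WT LPM 4 rose and 4 fell (median 0.14): Cebpe (1.64), Cish (1.03) and the cytokine signalling inhibitor Socs1 (0.83) had the largest rises, and Dusp6 (-3.74), Cebpa (-1.65) and Egr1 (-1.35) the largest falls. LPM against AM gave 3 higher and 12 lower in KO mice (median -0.77) and 3 higher and 10 lower in WT mice (median -0.61). Pparg averaged 5.58 in LPM against 10.52 in AM of KO mice (-4.94 ± 0.16) and 4.71 against 10.26 in WT mice (-5.55 ± 0.16). Egr2 (-5.09 in KO, -5.10 in WT) was also lower in LPM, and the ETS factor gene Etv5 (3.79 in KO, 3.37 in WT) was higher. These differences of Pparg, Egr2 and Etv5 had adjusted p between 1.1e-13 and 1.6e-09 (limma). The Stat5 target Socs2 averaged 3.75 in LPM against 7.32 in AM of KO mice, and 3.59 against 7.0 in WT mice. It passed the dim filter through AM, so its differences (-3.56 in KO, -3.41 in WT) are given without a test. The counts above include it.

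**Figure D5:**
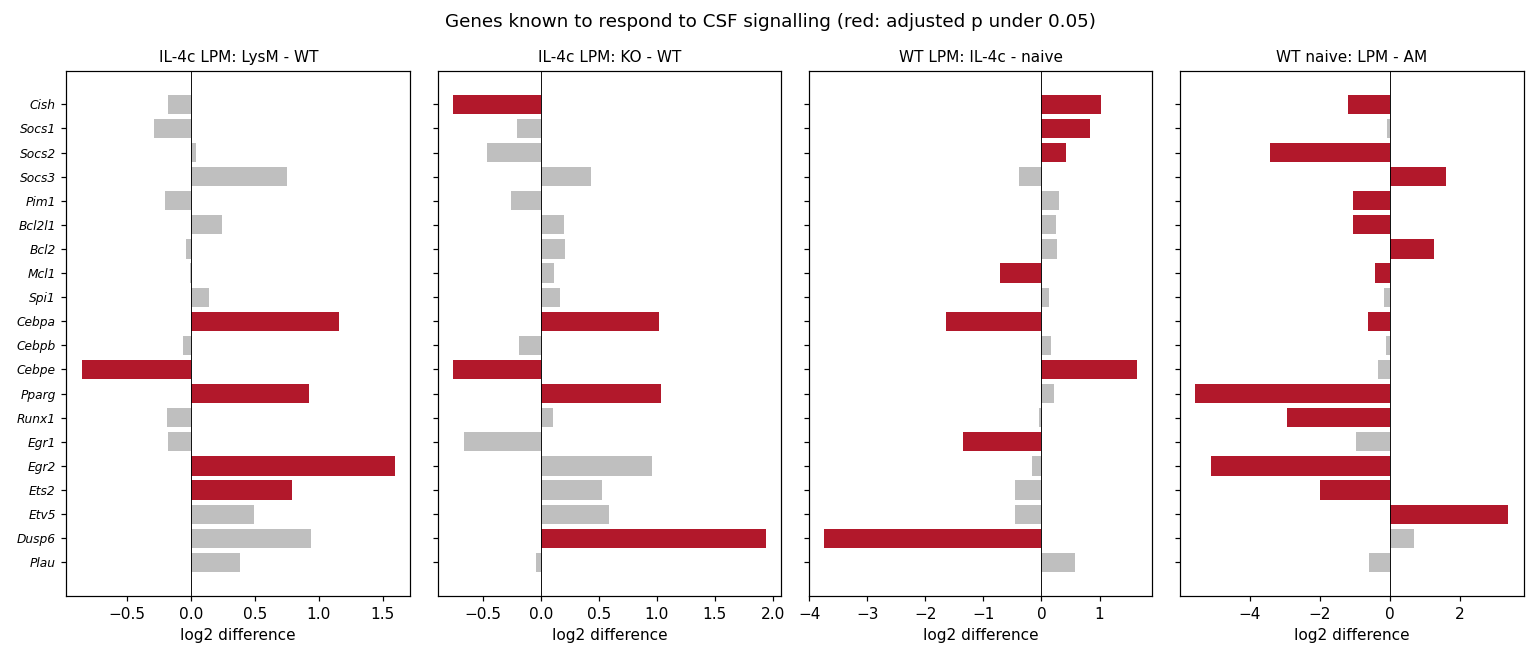
Log2 difference (x axis, first group minus second, own scale in each panel) of 20 tested genes known to respond to CSF signalling, in 4 comparisons, as bars from 0 with red for an adjusted p under 0.05. In IL-4c LPM, Cebpa and Pparg are higher and Cebpe lower in both mutants than in WT, and Pparg (-5.55) and Egr2 (-5.1) are the longest bars between WT LPM and AM. Socs2 is red there too, but it passed the dim filter through AM and its difference is a description.

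The tested genes most like each member were found by Pearson correlation over the 16 arrays, which fall into the same tissue and treatment groups, so r mainly describes those groups. Csf1r was closest to Cpq (0.996), Slfn4 (0.992) and Anxa3 (0.992). Csf3r was closest to Sos2 (0.948), Zfp626 (0.941) and Ppp3ca (0.936). Of the GM-CSF receptor genes, Csf2ra was closest to Amdhd2 (0.94), Tppp3 (0.935) and Litaf (0.931), and Csf2rb to Septin9 (0.991), Dld (0.975) and Mapkapk3 (0.975). Csf2rb2 was closest to Nmt2 (0.973), Parvg (0.972) and Mapkapk3 (0.97). Mapkapk3 was the 1 gene that 2 members shared. Csf1 had the weakest matches, with Khdc3 (0.879), Fkbp1b (0.869) and Asxl1 (0.866).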

How the data were processed

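The values are log2 signals per probe set, 1 column per array, as deposited; per the submitters' processing notes they were made with RMA, which corrects background, quantile-normalizes and summarises probe sets. The version of RMA and which arrays it was run on together are not stated here. Groups came from the sample titles. Among 30177 probe sets, 21789 carried a single symbol, 1621 more than 1 and 6767 no symbol here, and 21698 matched the RefSeq gene table (GRCm38.p6) by Entrez ID, with 0 symbols changed. For the 999 genes with several probe sets the brightest was kept, giving 19938 genes. A gene was tested if above the array median on at least 2 arrays (11634 kept, 8304 left out).

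Differences were fitted with limma 3.58.1 (lmFit, eBayes) in R 4.3.3 as group means over all 16 arrays, with 9 residual and 6.61 prior degrees of freedom and a median within-group SD of 0.171. Benjamini-Hochberg adjusted p under 0.05, over all tested genes of a comparison, made a call; intervals are 95%. The fit was tested on simulated data. Alternatives were array weights, a replicate block, robust variance with an intensity trend, fitting the compared arrays alone, averaging a gene's probe sets, repeating quantile normalization, centring on array medians, dropping the dim filter or setting it at the olfactory receptor percentile, and leaving out 1 array at a time.

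Members and gene lists were chosen with earlier results of these data known. Named were all 9 members, Bhlhe40, of each list and comparison at most the 3 largest called rises and falls, and 3 correlated genes per tested member; of the markers, single genes only where a list was set beside a member. Csf3r got no test in any difference that uses naive arrays, and Csf1 none between naive LPM, through which it passed the dim filter, and IL-4c LPM or AM. Counts of members leave these out. For Mmp8, Mmp9, Cxcr2, S100a9, Socs2, Itgax, Krt79 and Ccr2, differences from the group through which they passed that filter are likewise described. Counts and medians of lists include them. Windows are from RefSeq and cover 7 members, with 2 starts for Kit and no search of other sequence. Start position 0 is the annotated first base. Tables and figures used Python 3.11.15, pandas 2.3.3, numpy 2.4.6 and matplotlib 3.10.9.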

Additional observations from a re-analysis of the deposited data

Results flagged for a closer look

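The genotype difference of Csf3r in naive LPM minus that in naive AM was -2.13 on the log2 scale. All KO arrays lay below WT in LPM and above WT in AM, and because the gene was chosen on this pattern, the difference was not tested.

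The genotype difference of Csf3r was 1.92 higher in IL-4c LPM than in naive LPM (1.07 after IL-4c and -0.85 in naive mice, with no overlap of arrays in either). This difference was not tested either, since the naive values were used to choose the gene.

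For Cebpa, one of the genes known to respond to CSF signalling, the genotype difference was 1.09 higher in IL-4c LPM than in naive LPM (SE 0.23, adjusted p = 0.039, limma; 0.013 to 0.19 under 19 alternatives, of which 8 lost the call). After IL-4c, Cebpa fell by 0.55 in KO and fell by 1.65 in WT. The groups of 2 and 3 arrays are too small for a search for single outlying arrays.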

How the results depend on the processing

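Over 966 values of 66 member differences under the alternatives, 926 kept their direction and side of the threshold or, where untested or changing sign without a call, moved by less than the gene's own within-group SD (0.1 for Csf1r to 0.29 for Csf2rb2). Of the others, 22 lost a call and 1 gained one, and 0 called differences reversed. A further 17, untested or changing sign without a call, moved by more than that SD. Tested, uncalled differences that kept their sign were not held to that SD. Csf2rb2 for KO against WT in IL-4c LPM, for example, ran from -1.02 to -0.27. The number of members called changed by more than 1.5 times as follows. In naive LPM, KO against WT gave 1 with array weights, against 0. In IL-4c LPM, KO against WT gave 0 on the compared arrays alone, against 2, and Bhlhe40LysM against WT gave 0 on the compared arrays alone and 1 with centring, with no dim filter and with array weights, against 2. Leaving out 1 array at a time gave 0 to 2 for KO against WT and 1 to 1 for Bhlhe40LysM against WT in IL-4c LPM, 2 to 3 for IL-4c in KO and 3 to 3 in WT LPM, 4 to 4 for LPM against AM in KO and 3 to 4 in WT mice, and 0 in the 5 other comparisons. Where a pair loses an array, the remaining one is assumed to vary like the other groups. For IL-4c in KO LPM, 4 were called in place of 3 with no dim filter and with the olfactory receptor filter. The causes of these changes were not tested.

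Same-numbered arrays did not deviate together in naive mice (correlations of deviations -0.139 to 0.066 in LPM and -0.071 in AM). After IL-4c the correlations were weakly positive (0.115 for KO and WT, 0.148 for Bhlhe40LysM and WT, 0.21 for Bhlhe40LysM and KO). Each of these groups has only 2 arrays. Naive WT AM, of another tissue and treatment, gave 0.119 with WT, -0.14 with KO and -0.052 with Bhlhe40LysM IL-4c LPM. The numbers are therefore not taken to pair mice. With a replicate block the counts were 2 for KO and 2 for Bhlhe40LysM against WT after IL-4c, 3 in KO and 4 in WT for IL-4c, 4 in KO and 4 in WT for LPM against AM, and 0 elsewhere. Of the named list genes, calls for IL-4c were lost under 1 or more alternatives for 9 of 14 in KO LPM (Flt3l, Plau, Cebpe and Egr1 among them) and 3 of 12 in WT LPM (Grb2, Stat5a and Egr1), and for LPM against AM for 1 of 15 in KO (Dok1) and 0 of 15 in WT mice. Centring moved every difference of a comparison by at most 0.09. Groups of 2 or 3 arrays and signals near background, as for Csf1, limit what could be called.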
